A study of Mus musculus with 6 samples.

Results

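Interferon-induced antiviral genes were followed in sorted bone marrow cells with high and low surface MHC class II. The 40 members were fixed by symbol: the families Ifit, Ifitm, Oas, Mx, the interferon-inducible GTPases, the cytosolic RNA sensors, the ISG15 system and further Ifi and effector genes. All 40 had exactly 1 row among the 30803 rows of each table. The cells were labelled hematopoietic stem cells, the cells from which all blood lineages arise. The mice were wild type (WT) and 12 months old, and their bone marrow HSCs were parted into an MHCII-lo and an MHCII-hi fraction, with 3 libraries of each. No treatment or infection is named. The labels give neither the sort gates nor the number and sex of the animals, nor whether each library stands for its own animal. The p-values therefore measure only how these libraries vary within a fraction, which may be technical spread.

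Interferons are secreted proteins that warn cells of viruses. Type I interferons bind a receptor made of Ifnar1 and Ifnar2, which act through the kinases Jak1 and Tyk2 on a complex of factors that holds Stat2 and Irf9. That complex binds the interferon-stimulated response element (ISRE) in promoters of antiviral genes, while type II interferon acts through gamma-activated sites (GAS). Stem cells are known to express part of this antiviral programme without infection.

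Transcript levels are given in FPKM (fragments scaled to transcript length and to the library's mapped fragments), so levels can be compared between genes. A positive log2 fold change means a higher level in MHCII-hi. It was taken after adding 1 to each FPKM, so it understates changes of low genes. A gene was tested when its mean over the 6 libraries was at least 1 FPKM, and it passed at a limma adjusted p under 0.05. Of 15 stem cell marker genes, 8 lay under 1 FPKM in all 6 libraries, among them Procr, Slamf1, Mecom, Fgd5 and Hoxb5. Of 22 neutrophil markers, 21 were higher in MHCII-hi and 1, Lyz2, lower. These 22 together made up 3.72 to 3.75% of all FPKM in the MHCII-lo libraries and 16.7 to 16.8% in those of MHCII-hi. None was at 0. In bulk RNA, fewer cells of a type and less RNA per cell cannot be told apart. The number of reads is unknown.

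The antiviral genes did not move as a block. Of the 40 members, 35 were tested, 10 were higher in MHCII-hi, 6 were lower and 19 did not pass. Over all 12049 tested genes, 20.3% were higher and 40.5% lower, 60.9% in either direction. The members' shares were 28.6% higher and 17.1% lower, 45.7% together. The median log2 fold change was −0.01 for the tested members and −0.12 for all tested genes, so the members' median lay 0.11 above that of the median gene. Under median-ratio scaling the median of all tested genes was −0.02 and that of the members 0.08. The sign of the members' median thus depended on the scaling, but it lay above the median of all tested genes in both cases. The 3 values of the fractions did not overlap in 20 of 35 tested members (57.1%) and in 67.6% of all tested genes. Among the higher members, 9 had a ratio of mean FPKM of at least 2, as did 3 of the lower ones. Such ratios were reached by 4.88% of all tested genes upward and 3.03% downward. All 16 calls were kept under each alternative scaling and without any single library.

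**Figure D1:**
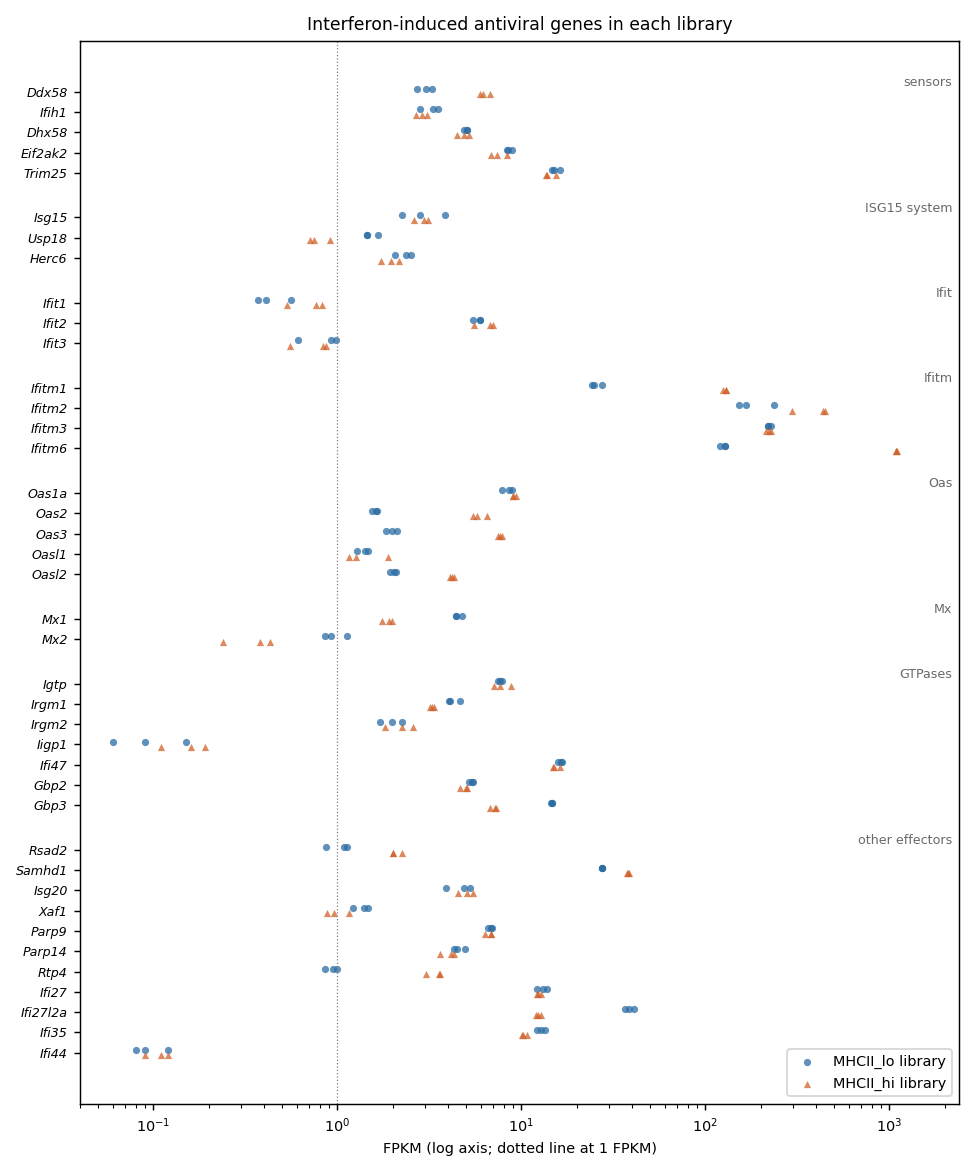
FPKM of each of the 40 members in each library on a log axis, circles for MHCII-lo and triangles for MHCII-hi, grouped by family. The fractions lie apart for Ifitm1, Ifitm6, Oas2, Oas3, Mx1 and Ifi27l2a and overlap for genes such as Ifitm3, Isg15 and Ifit2.

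The RNA sensors differed from each other. Ddx58 encodes RIG-I, the sensor of short RNA with a triphosphate end. It stood at 2.69, 3.03 and 3.25 FPKM in the MHCII-lo libraries and at 6.77, 5.96 and 6.19 FPKM in MHCII-hi. The fractions did not overlap, and the log2 fold change was 0.87 (SE 0.07, limma adjusted p 5.79e-05). Ifih1, which encodes MDA5, the sensor of long double-stranded RNA, was at 3.22 ± 0.376 FPKM (mean ± SD, n = 3) in MHCII-lo, at 2.87 ± 0.186 in MHCII-hi, and did not pass. Further pairs of means with SD are given in that order of fractions, with n = 3 each. Dhx58 (LGP2, a helper of MDA5) also did not pass, at 5.0 ± 0.113 and 4.85 ± 0.350 FPKM. Eif2ak2 (PKR, a kinase that halts translation on double-stranded RNA) was at 8.59 ± 0.265 and 7.53 ± 0.789 FPKM. Its limma adjusted p was 0.0673, and it passed as lower without MHCII-hi replicate 1 (0.00946). Trim25, the ubiquitin ligase that acts on RIG-I, was the most abundant of the group, at 15.0, 14.7 and 16.2 FPKM in MHCII-lo and 13.7, 13.8 and 15.4 in MHCII-hi. Its fractions overlapped and it did not pass.

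Genes of the ISG15 system were low. Isg15, a ubiquitin-like protein that is joined to other proteins, was at 3.85, 2.23 and 2.82 FPKM in MHCII-lo and at 3.11, 2.61 and 2.96 in MHCII-hi. The values overlapped, and the 95% interval of the log2 fold change ran from −0.36 to 0.34. Herc6, the mouse ligase for ISG15, did not pass (2.31 ± 0.240 and 1.95 ± 0.210 FPKM), and 23.8% of its 50-base stretches recur in the overlapping gene Gm45193, itself at most at 0.09 FPKM. Usp18 removes ISG15 from proteins and also damps signalling at the type I receptor. It was lower in MHCII-hi: 1.44, 1.67 and 1.45 FPKM against 0.71, 0.91 and 0.75 FPKM. The log2 fold change was −0.49 (SE 0.09, limma adjusted p 0.00263).

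The Ifit genes, whose proteins bind foreign RNA ends, gave no call. Ifit2 was at 5.94, 5.93 and 5.43 FPKM in MHCII-lo and at 6.76, 5.51 and 7.01 in MHCII-hi, with overlap through MHCII-hi replicate 2. Without that library it passed as higher (log2 fold change 0.22, limma adjusted p 0.0187), as it did with neutrophil markers left out of the total (log2 fold change 0.24). Ifit1 (0.447 ± 0.1002 and 0.703 ± 0.153 FPKM) and Ifit3 (0.837 ± 0.199 and 0.750 ± 0.174 FPKM) were under the testing limit. Of the 50-base stretches of Ifit3 transcripts, 51.2% also occur in another gene, mainly Ifit3b, so its value is uncertain.

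The Ifitm genes, which encode small membrane proteins that hinder virus entry, included the pair of members with the largest log2 fold changes, Ifitm6 and Ifitm1. They lie together on chromosome 7 (GRCm38), from the start of Ifitm2 at 140954837 to the end of Ifitm6 at 141017924. Ifitm6, a member expressed in myeloid cells, was at 128, 127 and 120 FPKM in MHCII-lo and at 1092, 1103 and 1090 FPKM in MHCII-hi. All MHCII-hi libraries lay far above all MHCII-lo libraries, a ratio of means of 8.73 and a log2 fold change of 3.12 (SE 0.03, limma adjusted p 1.69e-09). Ifitm1 was at 24.2, 24.8 and 27.5 FPKM against 129, 125 and 129 FPKM, a ratio of 4.997. Its log2 fold change was 2.28 (SE 0.05, limma adjusted p 9.52e-08). Ifitm3, the member best known for restricting influenza virus, stood at 219, 219 and 226 FPKM in MHCII-lo and at 227, 221 and 214 FPKM in MHCII-hi. The fractions overlapped, and the 95% interval of its log2 fold change ran from −0.07 to 0.06. Under median-ratio scaling and with neutrophil markers left out of the total, Ifitm3 passed as higher by 0.11 and 0.13. Leaving Ifitm2 aside, whose value is uncertain, the order of levels was Ifitm3, Ifitm6 and Ifitm1 in MHCII-lo and Ifitm6, Ifitm3 and Ifitm1 in MHCII-hi, with no overlap between neighbours. In the same libraries 21 of 22 neutrophil markers were higher, with a median log2 fold change of 2.59, and their part in the Ifitm difference was not tested.

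Ifitm2 needs its neighbour to be read. It was at 234, 153 and 165 FPKM in MHCII-lo and at 295, 444 and 433 FPKM in MHCII-hi. The fractions did not overlap, but within each fraction replicate 1 stood apart, higher in MHCII-lo and lower in MHCII-hi (log2 fold change 1.08, SE 0.21, limma adjusted p 0.00351). Gm45717, a gene model on the same strand that overlaps exons of Ifitm2, was at 4.12, 107 and 106 FPKM in MHCII-lo and at 203, 0.51 and 5.92 in MHCII-hi. Thus Gm45717 was high in just those libraries where Ifitm2 was low within its fraction. Of the 50-base stretches of Ifitm2 transcripts, 48.5% also occur in another gene, mainly Gm45717. Summed, the pair stood at 238, 260 and 272 FPKM in MHCII-lo and at 498, 445 and 439 FPKM in MHCII-hi, with no library far from the rest of its fraction. The summed log2 fold change was 0.84 (SE 0.06, limma adjusted p 3.76e-05), a comparison chosen after the values were seen. The deposited value of Ifitm2 alone is therefore uncertain, and its difference was smaller and its error lower in the sum.

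**Figure D2:**
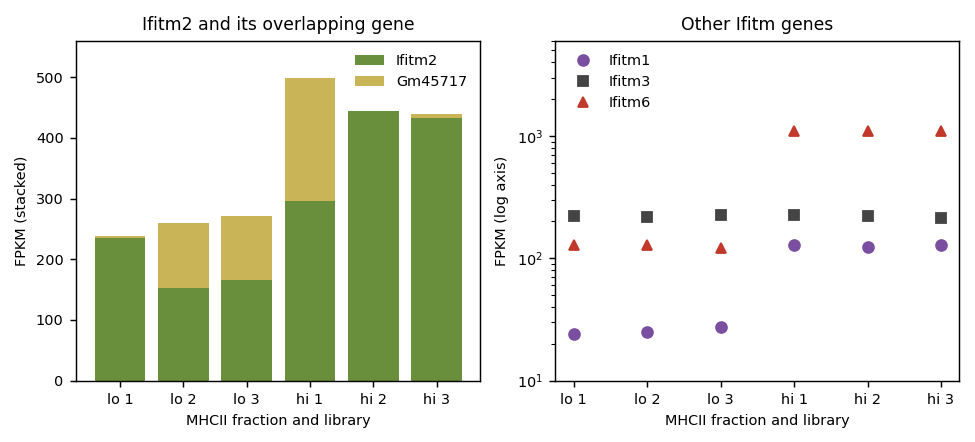
Left, FPKM of Ifitm2 and of the overlapping gene Gm45717 stacked for each library; right, FPKM of Ifitm1, Ifitm3 and Ifitm6 by library on a log axis. The stacked total is 238 to 272 FPKM for MHCII-lo and 439 to 498 FPKM for MHCII-hi, while the split between both genes varies within a fraction.

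The Oas genes encode enzymes that sense double-stranded RNA and make a short nucleotide messenger, while Oasl proteins do not make that messenger. Of 5 members, 3 were higher and none was lower, where 20.3% of all tested genes were higher and 40.5% lower. Oas3 was at 1.98, 2.10 and 1.83 FPKM in MHCII-lo and at 7.65, 7.81 and 7.44 FPKM in MHCII-hi, a ratio of 3.87. The log2 fold change was 1.54 (SE 0.05, limma adjusted p 8.49e-07). Oas2 was at 1.61 ± 0.0586 and 5.88 ± 0.566 FPKM, and Oasl2 at 2.02 ± 0.0764 and 4.20 ± 0.110 FPKM, both without overlap. Oas1a, the most abundant of the family, was at 7.84, 8.58 and 8.94 FPKM in MHCII-lo and at 8.95, 9.05 and 9.38 in MHCII-hi. Its fractions were apart by only 0.01 FPKM, and it did not pass (limma adjusted p 0.134). It passed as higher under all 3 other scalings, by 0.16 to 0.22. Its value is uncertain, since 57.6% of its 50-base stretches recur in other genes, mainly Oas1g. Oasl1 did not pass (1.38 ± 0.0929 and 1.43 ± 0.390 FPKM). Summed over the 5 genes, the family went from 14.9 to 15.7 FPKM in the MHCII-lo libraries to 27.8 to 28.7 in MHCII-hi.

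The Mx genes, large GTPases that trap viral ribonucleoproteins, went the other way. Mx1 was at 4.39, 4.42 and 4.76 FPKM in MHCII-lo and at 1.74, 1.91 and 1.99 FPKM in MHCII-hi. Every MHCII-hi value was below every MHCII-lo value, with a log2 fold change of −0.94 (SE 0.06, limma adjusted p 1.85e-05). Mx2, annotated as a polymorphic pseudogene, was under the testing limit, at 0.970 ± 0.142 and 0.350 ± 0.0985 FPKM, again without overlap. Without a filter on low values it passed as lower.

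Among the immunity-related and guanylate-binding GTPases, which act on the membranes around intracellular pathogens, 2 of 6 tested genes were lower and none was higher. For comparison, 40.5% of all tested genes were lower and 20.3% higher. Gbp3 was at 14.6, 14.7 and 14.6 FPKM in MHCII-lo and at 7.27, 7.18 and 6.73 FPKM in MHCII-hi. The groups were far apart against SDs of 0.0651 FPKM within MHCII-lo and 0.289 FPKM within MHCII-hi. The log2 fold change was −0.95 (SE 0.04, limma adjusted p 1.90e-06). Irgm1, a regulator of the other immunity-related GTPases, was at 4.25 ± 0.314 and 3.27 ± 0.0902 FPKM (log2 fold change −0.30, limma adjusted p 0.00428). Ifi47, the most abundant of the group, was at 16.3, 16.5 and 15.8 FPKM in MHCII-lo and at 15.1, 14.8 and 16.2 in MHCII-hi, which overlapped. It shares exons on the same strand with Olfr56. Igtp (7.64 ± 0.220 and 7.80 ± 0.849 FPKM), Irgm2 (1.98 ± 0.270 and 2.21 ± 0.390 FPKM) and Gbp2 (5.35 ± 0.135 and 4.90 ± 0.229 FPKM) did not pass. Igtp and Irgm2 overlap on the same strand, and 11.8% and 7.77% of their 50-base stretches recur elsewhere, mainly in each other. Iigp1 was at 0.10 ± 0.0458 and 0.153 ± 0.0404 FPKM and was not tested.

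Of the 11 remaining effectors, 10 were tested, 3 were higher and 2 lower (all tested genes: 20.3% and 40.5%). Rtp4, a chaperone of receptor traffic that interferon induces, was at 0.94, 1.0 and 0.86 FPKM in MHCII-lo and at 3.56, 3.02 and 3.6 FPKM in MHCII-hi. It had the largest increase of this group, a log2 fold change of 1.18 (SE 0.08, limma adjusted p 2.26e-05). Of its 50-base stretches 11.6% recur in the overlapping gene Gm45338. Rsad2 (viperin, which makes a chain terminator of viral RNA) was at 1.03 ± 0.140 and 2.08 ± 0.144 FPKM. Samhd1, which breaks down the nucleotides that reverse transcription needs, was the most abundant of the group. It was at 27.3, 27.3 and 27.3 FPKM in MHCII-lo and at 38.3, 37.3 and 37.8 FPKM in MHCII-hi, a modest ratio of 1.38 with almost no spread (log2 fold change 0.46, SE 0.02).

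Ifi27l2a, a small mitochondrial or nuclear envelope protein strongly induced by type I interferon, had the largest decrease of all members. It was at 36.6, 40.8 and 38.3 FPKM in MHCII-lo and at 12.7, 12.0 and 12.4 FPKM in MHCII-hi. Its level was 3.12 times lower in MHCII-hi, with a log2 fold change of −1.57 (SE 0.05, limma adjusted p 4.12e-07). Its neighbour on chromosome 12, Ifi27, did not pass (13.04 ± 0.854 and 12.4 ± 0.309 FPKM). Ifi35 was lower by a small amount, at 12.8 ± 0.600 and 10.3 ± 0.382 FPKM (log2 fold change −0.28, limma adjusted p 0.00174). Xaf1, which antagonises inhibitors of apoptosis, was at 1.36 ± 0.131 and 0.997 ± 0.139 FPKM. Its limma adjusted p was 0.0568, and it passed as lower without MHCII-hi replicate 2 (0.0457). Isg20 (an exonuclease), Parp9 and Parp14 (ADP-ribosyltransferase family) did not pass, at means between 4.01 and 6.78 FPKM. Parp9 overlaps Dtx3l on the other strand. Ifi44 stayed at 0.08 to 0.12 FPKM.

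**Figure D3:**
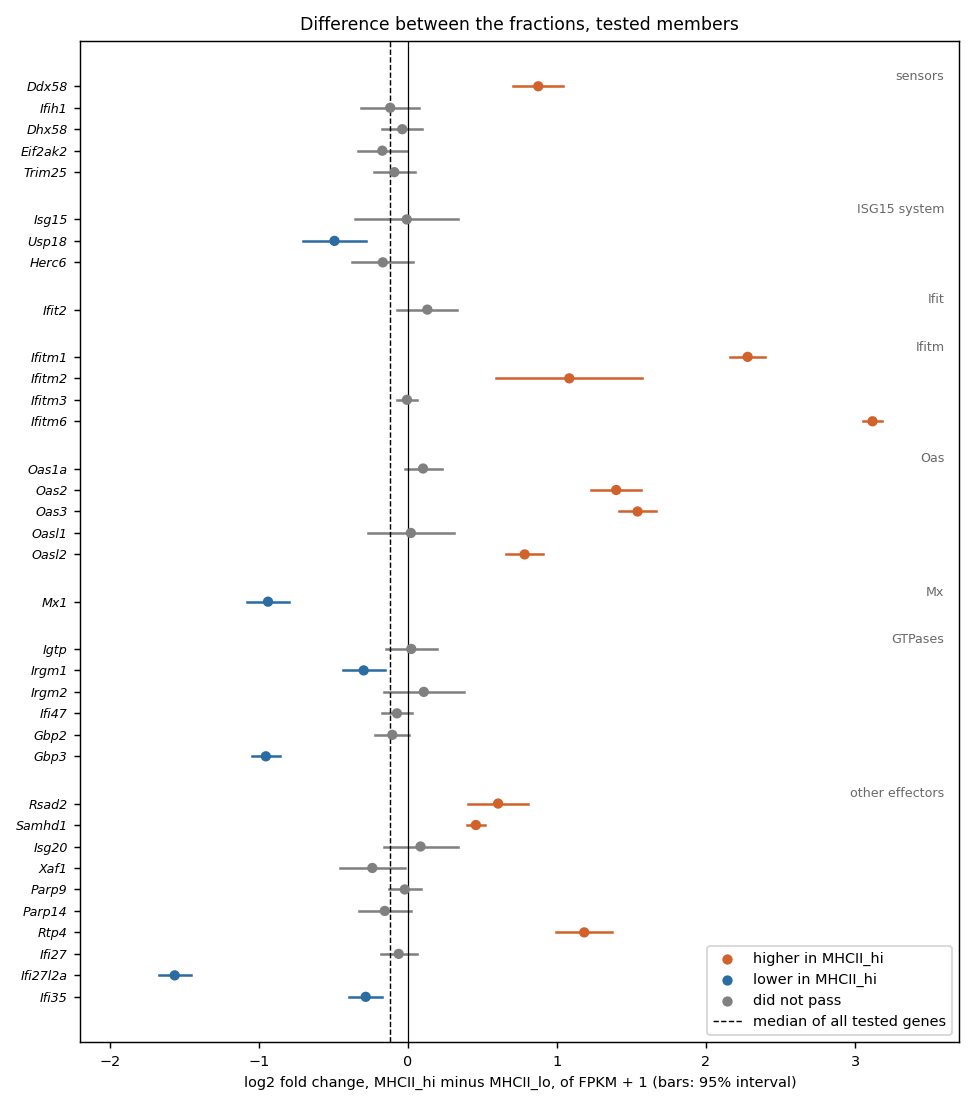
Log2 fold change of FPKM + 1, MHCII-hi minus MHCII-lo, for the 35 tested members with 95% intervals; the dashed line is the median of all tested genes at −0.12. Higher members (10) lie among the sensors, Ifitm, Oas and other effectors, and lower members (6) in the ISG15 system, Mx, GTPases and other effectors.

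The Ifitm genes made up most of the summed level of the whole set. The 35 tested members summed to 752 to 833 FPKM in the MHCII-lo libraries and to 1960 to 2103 FPKM in MHCII-hi. The 31 tested members outside the Ifitm family summed to 227 to 232 FPKM in MHCII-lo and to 210 to 216 FPKM in MHCII-hi. The direction of that smaller sum depended on scaling: it was 216 to 221 and 217 to 224 FPKM after median-ratio scaling. The deposited direction rested on Ifi27l2a: without it the other 30 genes summed to 187 to 194 FPKM in the MHCII-lo libraries and to 198 to 204 FPKM in those of MHCII-hi. The sums of Ifitm and Oas were higher under all 4 scalings, also without Ifitm6 or Oas3. Those of the GTPases and other effectors were lower under all 4 with every tested gene included. Without Ifi27l2a the other effectors summed to 70.2 to 74.96 FPKM in MHCII-lo libraries and, higher, to 82.6 to 82.8 FPKM in MHCII-hi ones, and they were higher under the other 3 scalings too. Without Gbp3 the GTPases were at 35.2 to 35.9 and 33.3 to 33.8 FPKM as deposited, and higher in MHCII-hi after median-ratio scaling (33.5 to 34.3 and 34.5 to 35.0 FPKM). These sums without a gene were chosen after the values were seen, and the Mx family had only Mx1 tested. Most tested markers of other myeloid cells were also lower, as were 40.5% of all tested genes (20.3% were higher). Of 12 dendritic cell markers, 9 were tested and all 9 were lower, with summed FPKM of 317 to 324 and 169 to 174 in the same order of fractions. Of 12 monocyte and macrophage markers, 7 were lower, 2 higher, 1 did not pass and 2 were not tested, with sums of 971 to 1001 and 615 to 642 FPKM. None of these markers but C1qb, at 0 in MHCII-lo replicate 3, was at 0 in any library. The part of these markers in the lower antiviral genes was not tested.

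Promoter sequence was compared because the fractions differed in which antiviral genes were high. RefSeq promoter windows of 300 bases on GRCm38.p6, from 250 before to 50 after the start site, were held for 29 of the 40 members. The ISRE core was searched as GAAANNGAA and the gamma-activated site as TTCNNNGAA, each on both strands. An ISRE core occurred in 18 of the 29 members (62.1%) and in 9.76% of all 27025 genes with a window. A GAS occurred in 10 of the 29 (34.5%) and in 9.55% of all genes. Cores were found in 4 of 8 higher members with a window (Ddx58, Ifitm2, Oas3 and Rsad2), in 2 of 3 lower members (Gbp3 and Irgm1) and in 9 of 15 that did not pass. The last 120 bases before the start site are shown for 2 higher members, 2 lower members and Isg15, with ISRE cores on either strand in capitals. Overlapping cores form a single run.
Oas3, higher, chr5:120777660-120777779, minus strand: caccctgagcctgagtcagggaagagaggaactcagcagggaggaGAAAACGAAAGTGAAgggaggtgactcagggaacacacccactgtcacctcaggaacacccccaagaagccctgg
Rsad2, higher, chr12:26456453-26456572, minus strand: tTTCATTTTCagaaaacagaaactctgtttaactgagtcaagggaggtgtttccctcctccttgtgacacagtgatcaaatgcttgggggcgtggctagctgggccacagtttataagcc
Gbp3, lower, chr3:142559924-142560043, plus strand: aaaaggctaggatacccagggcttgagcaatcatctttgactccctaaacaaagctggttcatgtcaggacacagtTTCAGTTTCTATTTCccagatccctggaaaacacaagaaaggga
Irgm1, lower, chr11:48871421-48871540, minus strand: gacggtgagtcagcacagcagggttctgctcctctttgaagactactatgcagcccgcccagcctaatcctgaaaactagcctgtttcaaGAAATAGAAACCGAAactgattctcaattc
Isg15, not passed, chr4:156200819-156200938, minus strand: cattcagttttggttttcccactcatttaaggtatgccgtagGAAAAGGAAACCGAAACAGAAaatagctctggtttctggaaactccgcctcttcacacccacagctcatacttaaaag

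Genes with such cores thus stood among the higher, the lower and the uncalled members, and Isg15 held 3 overlapping cores. The members with the largest increases, Ifitm6 and Ifitm1, had no ISRE core in their window, and Ifitm6 had a GAS. GENCODE M21 begins both genes further upstream, Ifitm6 at 141017924 and Ifitm1 at 140967221. Those positions lie outside the RefSeq windows, and the sequence before them was not searched. The last 120 bases before the RefSeq start site of each gene are shown for comparison with the promoters above. A match is a description of letters, and no match says only that these letters are not in the window.
Ifitm6, higher, chr7:141016893-141017012, minus strand: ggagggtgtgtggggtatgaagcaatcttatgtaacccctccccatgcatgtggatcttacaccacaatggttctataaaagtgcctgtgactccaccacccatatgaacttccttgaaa
Ifitm1, higher, chr7:140967956-140968075, plus strand: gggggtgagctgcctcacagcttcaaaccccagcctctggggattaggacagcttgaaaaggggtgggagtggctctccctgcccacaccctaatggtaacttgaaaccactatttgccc

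The genes that carry the interferon signal also moved in both directions. Of 18 receptor, kinase and factor genes, 17 were tested, 7 were higher, 7 lower and 3 did not pass. Of all tested genes, 20.3% were higher and 40.5% lower. The chains of the type I receptor differed in direction. Ifnar2 was at 29.8, 29.4 and 29.3 FPKM in MHCII-lo and at 22.8, 21.2 and 20.8 in MHCII-hi (log2 fold change −0.43, limma adjusted p 0.000105). Ifnar1 was slightly higher (9.68 ± 0.440 to 10.8 ± 0.337 FPKM, limma adjusted p 0.0312). The log2 fold change of Ifnar1 was 0.14, and its call was lost without MHCII-lo replicate 1 or 2 and without MHCII-hi replicate 2 or 3, at 0.11 to 0.15 with limma adjusted p of 0.0588 to 0.0915. It was also lost with the replicate number as a block (adjusted p 0.0663) and with no filter on low values (0.0564). Among the type II receptor genes, Ifngr1 was lower (106 ± 1.94 to 86.1 ± 1.63 FPKM) and Ifngr2 did not pass (7.30 ± 0.188 and 7.22 ± 0.451 FPKM). The type III receptor gene Ifnlr1 had the largest difference of the list. It was at 0.47, 0.68 and 0.73 FPKM in MHCII-lo and at 4.81, 5.10 and 5.13 FPKM in MHCII-hi, a ratio of 8.0 and a log2 fold change of 1.89 (SE 0.08, limma adjusted p 2.40e-06). Its partner chain Il10rb was higher too (8.89 ± 0.322 to 12.9 ± 0.711 FPKM).

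Downstream of the receptors, Jak1 was higher (30.2 ± 1.28 to 43.2 ± 0.779 FPKM), and Jak2 (28.6 ± 0.908 to 21.9 ± 0.260 FPKM) and Tyk2 (12.6 ± 0.714 to 10.3 ± 0.155 FPKM) were lower. Of the complex that binds the ISRE, Stat2 did not pass (5.80 ± 0.191 and 5.46 ± 0.452 FPKM) and Irf9 was lower (9.95 ± 0.485 to 7.74 ± 0.512 FPKM, log2 fold change −0.33). Irf1 was lower (19.9 ± 0.301 to 14.5 ± 0.635 FPKM). Irf3 was lower as well (11.2 ± 0.305 to 9.80 ± 0.275 FPKM), but not after median-ratio scaling (limma adjusted p 0.142). Irf7, the factor that amplifies type I interferon, did not pass (4.53 ± 0.115 and 4.48 ± 0.284 FPKM). Of the genes that damp signalling, Socs3 was higher (7.71 ± 0.456 to 17.1 ± 0.360 FPKM, log2 fold change 1.06), as was the phosphatase gene Ptpn6 (78.7 ± 1.81 to 94.4 ± 2.65 FPKM). Socs1 was under the testing limit (0.797 ± 0.258 and 0.577 ± 0.0404 FPKM).

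Of 10 ligand genes, 5 had a row, and only Ifng reached the testing limit. Ifng, type II interferon, was at 3.55, 3.58 and 3.11 FPKM in MHCII-lo and at 2.10, 1.81 and 2.19 FPKM in MHCII-hi. It was lower without overlap (log2 fold change −0.54, SE 0.08, limma adjusted p 0.000869). T and NK cells are the known source of Ifng. Of 12 T and NK cell markers, 9 were tested, 5 were lower and none was higher, and 4 (Cd3d, Cd3g, Cd8a and Lck) did not pass. Their sums were 214 to 218 and 169 to 178 FPKM, with none at 0. Most of each sum was Nkg7 (160 ± 5.66 and 137 ± 5.12 FPKM). Among all tested genes 40.5% were lower and 20.3% higher. The part of these markers in the Ifng value was not tested. Ifnb1 and Ifnab were listed at 0 in all 6 libraries, and Ifna2 and Ifnk were above 0 in 1 library each, at 0.13 and 0.06 FPKM.

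Adaptors and other nucleic acid sensors gave 4 higher and 5 lower genes of 13 tested (all tested genes: 20.3% and 40.5%). Among the higher genes were Myd88, the adaptor of Toll-like receptors (24.6 ± 0.528 to 37.8 ± 0.631 FPKM), and Traf3 (5.99 ± 0.0907 to 7.46 ± 0.220 FPKM). Mavs, the adaptor through which RIG-I and MDA5 signal, was at 6.46, 7.02 and 6.03 FPKM in MHCII-lo and at 3.55, 3.76 and 3.7 FPKM in MHCII-hi. Mavs was thus lower (log2 fold change −0.68, SE 0.06) in the libraries in which Ddx58 was higher. The receptor gene Tlr9 (2.06 ± 0.0493 to 0.910 ± 0.140 FPKM) and Aim2 (17.7 ± 1.38 to 10.9 ± 0.395 FPKM), both for sensors of DNA, were lower too.

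A list of 56 further interferon-induced genes gave 15 higher and 21 lower of 46 tested (all tested genes: 20.3% and 40.5%). Its median log2 fold change of −0.11 was close to the −0.12 of all tested genes. After median-ratio scaling it gave 19 and 19. Without single libraries it gave 12 to 13 higher and 20 to 21 lower. The largest increases were those of Mov10, an RNA helicase (1.53 ± 0.241 to 4.92 ± 0.130 FPKM), Ddx60, a helicase tied to RIG-I (0.887 ± 0.107 to 2.77 ± 0.0153 FPKM), and Sp140, a nuclear body protein (23.3 ± 1.14 to 40.8 ± 1.34 FPKM). The largest decreases were those of Ifi209 (33.7 ± 1.53 to 10.1 ± 0.311 FPKM), Ifi211 (19.9 ± 0.951 to 6.42 ± 0.200 FPKM) and Ifi207 (11.2 ± 0.308 to 4.01 ± 0.131 FPKM). These 3 belong to the Ifi200 family, related to Aim2, whose members resemble each other, so how fragments were shared among them is uncertain.

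**Figure D4:**
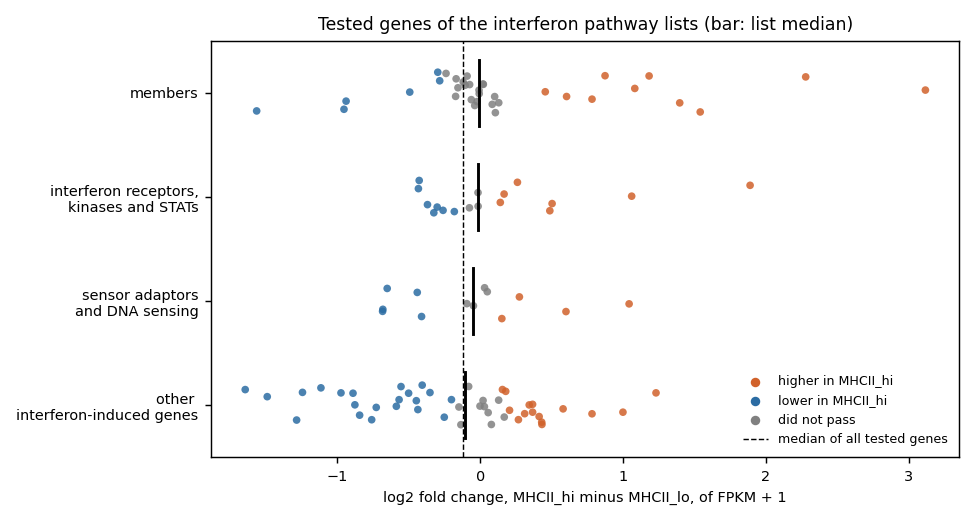
Log2 fold change of FPKM + 1 for each tested gene of the members and of 3 lists of the interferon pathway, with black bars for list medians and a dashed line for the median of all tested genes. Each list holds genes higher and lower in MHCII-hi, and the medians lie between −0.11 and −0.01.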

How the data were processed

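RNA from 6 libraries, 3 per fraction, was extracted on columns and made into stranded mRNA libraries, per the labels' protocols. The submitters' processing notes name fastp, HISAT2, StringTie and GRCm38 (mm10), without versions, and do not say whether strand was used. The deposited tables hold 1 value per gene, taken as FPKM: no header names the unit, values have 2 decimals, and the values are not whole and sum to 327364 to 346651 per library. FPKM carry no depth, so no counting intervals are given and no count model was used.

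The 70 extra rows of repeated symbols were kept as rows of their own, none of a member. Values were tested as log2(FPKM + 1) by limma (version 3.58.1, R 4.3.3). The fraction was the sole covariate, the prior variance followed the mean level, and p-values were adjusted by Benjamini and Hochberg across 12049 genes. Tested on simulated data for MHCII-hi against MHCII-lo (12049 genes, 200 of them changed), it found 46% of 1.25-fold, 84% of 1.5-fold, 88% of 2-fold and 98% of 4-fold changes. False calls made up 10 of 168. In the fit of the real libraries 7334 genes were called, far more than were changed in the simulation, so these rates may not hold there. Positions, exon overlaps and shared 50-base stretches come from GENCODE M21, promoters from RefSeq. Tmem173, Mb21d1 and Mnda were matched through synonyms as Sting1, Cgas and Ifi211.

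Members and lists were chosen with earlier results of these data known. All members are named. By rule, values in every library are given for the called member of each family with the largest change in each direction and the member with the highest mean. Of the pathway lists, all receptor genes and the 3 largest changes in each direction of the others are named, except that some results of these lists are not reported here. Values in every library of Ifitm1, Ifitm2, Ifitm3, Gm45717 and of list genes were chosen after the values were seen. Alternatives were another pseudocount (0.1 or 5), filter (none or 5 FPKM), scaling, variance model, a replicate block and leaving out each library. Python 3.11.15 and pandas 2.3.3 served for other steps.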

Additional observations from a re-analysis of the deposited data

How the results depend on the processing

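All 10 higher and 6 lower calls were kept under every alternative in which the gene was tested. At a mean of at least 5 FPKM only 17 members were tested, 4 higher and 3 lower, with a median of −0.0223. The members' median was 0.0802 after median-ratio scaling, 0.0463 after quantile normalization and 0.0947 with neutrophil markers left out of the total. Without single libraries it ranged from −0.0414 to −0.0085, with 10 to 11 higher and 6 to 7 lower members. Over all tested genes, the split was 2451 higher and 4883 lower as deposited, 3258 and 3282 after median-ratio scaling, 2819 and 4025 after quantile normalization and 3418 and 3095 without neutrophil markers in the total. The members that turned direction were all uncalled as deposited. After median-ratio scaling these were Dhx58 (0.059), Trim25 (0.0182), Isg15 (0.0785), Ifitm3 (0.1099), Ifi47 (0.0362), Parp9 (0.0802) and Ifi27 (0.0464). After quantile normalization they were Dhx58 (0.0283), Isg15 (0.0607), Ifitm3 (0.0299) and Parp9 (0.0463). Without neutrophil markers in the total they were Dhx58 (0.0728), Trim25 (0.0337), Isg15 (0.0909), Ifitm3 (0.1263), Ifi47 (0.0517), Gbp2 (0.0067), Parp9 (0.0947) and Ifi27 (0.0617). These 3 settings moved the median of all tested genes from −0.12 to −0.02, −0.07 and −0.01. Without single libraries the ranges that crossed 0 were −0.1469 to 0.1463 for Isg15, −0.0194 to 0.1596 for Isg20, −0.0296 to 0.0156 for Ifitm3, −0.1086 to 0.099 for Oasl1, −0.0529 to 0.083 for Igtp, −0.0394 to 0.0098 for Parp9 and −0.0809 to 0.0056 for Dhx58.

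With the replicate number as a block, 10 members were higher and 7 lower (Eif2ak2 added, log2 fold change −0.1727, limma adjusted p 0.0463), and 2309 and 4662 of all genes. Deviations of libraries of the same number correlated at −0.0421 to −0.04, and those of different numbers at 0.0078 to 0.0357. With 3 libraries per fraction, these correlations cannot show whether libraries of the same number came from the same animals. Depth is unknown, which limits what can be said of the 5 members under 1 FPKM.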

Other observations

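Within the list of further interferon-induced genes, all 6 listed members of the Ifi200 family were lower in MHCII-hi, as were 40.5% of all tested genes. Their log2 fold changes ran from −1.65 for Ifi209 to −0.89 for Ifi205. How fragments were shared among these similar genes is uncertain, so they may not be separate decreases. Bst2, which encodes tetherin and also stood in the dendritic cell list, was lower (40.5 ± 0.745 to 20.1 ± 1.54 FPKM). Ly6e, an abundant interferon-induced surface protein, was lower as well (249.3 ± 2.59 to 147 ± 2.93 FPKM). The DNA-sensing genes Cgas (9.44 ± 0.379 to 6.86 ± 0.486 FPKM) and Sting1 (20.2 ± 0.977 to 14.6 ± 1.10 FPKM) were both lower. These genes were chosen after their values were seen.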
